A study of Mus musculus with 6 samples.

Results

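The 37 mouse genes described here make sterols and fatty acids, control their own synthesis, move sterols inside cells, or send them out of cells. They were chosen by name as a set of pathway genes and matched by NCBI gene identifier to the gene tables of 6 RNA-seq libraries. Of 17254 genes listed in any library, 36 were members of the set, and 35 of these were among the 11717 genes with a mean of at least 1 FPKM (fragments scaled to transcript length and library size) that were tested. Nr1h3, which encodes the liver X receptor LXRα, was listed below that level, and Abcg1, a sterol exporter, was not analysed here.

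Cells build cholesterol from acetyl-CoA by way of mevalonate, squalene and lanosterol, and the genes of this route and of fatty acid synthesis are switched on by the SREBP transcription factors. When sterols are low, SCAP escorts SREBP from the endoplasmic reticulum to the Golgi for cleavage, and when sterols are high, INSIG proteins hold both back. Oxidised sterols instead activate the LXR receptors, which switch on genes that load sterols onto lipoproteins outside the cell. In the brain, plasma lipoproteins are kept out by the blood-brain barrier, so neural cells rely on local synthesis and on lipoproteins that carry Apoe.

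The study treated cultured mouse neural progenitors with paraquat (PQ), a herbicide that cycles between redox states and makes superoxide, or with N-acetylcysteine (NAC), a thiol that feeds glutathione synthesis. Each group had 2 libraries: untreated control, PQ at 5 µM and NAC, all at 48 h in N2 medium with EGF and bFGF. The NAC dose of 5 mM comes from the study's methods, and the labels give none. The methods describe 1 immortalized Ink/Arf-/- culture from neonatal brain, which holds quiescent and activated stem cells, neuronal precursors and oligodendroglial progenitors. All libraries were read as this culture, so the deletion was taken to be shared by controls and treated cells. Total expected counts were 9849392 and 10040827 in control, 10388731 and 9680436 in PQ, and 10698241 and 9907726 in NAC. Replicate 1 of control and of PQ carries labels of a NucleoSpin kit and an Illumina protocol, strain C57BL/6 and genotype "Ink/Ark knockout", whereas the other 4 libraries are labelled TRIZOL and BGISEQ-500 with no strain or genotype. The study's methods instead give 1 Illumina workflow for its RNA-seq, so the split rests on the labels alone. Both NAC libraries therefore share a labelled protocol with only 1 control and 1 PQ library. Differences within a labelled protocol are given beside the pooled ones for lists of genes and for Apoe, Scd1 and Fasn. The study states that its RNA-seq was replicated and plans its sample sizes in biological replicates, but does not say that these replicate libraries came from separate cultures, so p-values measure the spread between these libraries, which may be technical.

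Markers of neural progenitors were plentiful. Vim stood at 2171 and 2323 FPKM in control, 2547 and 2647 in PQ, and 1362 and 1389 in NAC. Sox2 stood at 164 and 141 FPKM in control, 121.7 and 121.5 in PQ, and 124 and 130.0 in NAC, and Olig1 was the most abundant oligodendrocyte lineage marker. Of 8 microglial markers, 6 had at most 3 counts in every library, as did Sox10 of the oligodendrocyte lineage and Stmn2 of neurons. Mog and Mag of the oligodendrocyte lineage and Rbfox3 of neurons were not listed in any library. The stem cell marker Prom1 reached at most 0.16 FPKM. Cdkn2a, the gene of the Ink/Arf locus, had 120 to 162 counts in every library, and a value for the whole gene cannot check a deletion inside it.

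Transcript levels per length differed widely among the members. Averaged over the 6 libraries, Scd2, a desaturase that makes monounsaturated fatty acids, stood at 740.2 FPKM, above 99.5% of tested genes. Hmgcs1, which makes HMG-CoA at the start of the mevalonate route, stood at 371 FPKM, above 98.6%. Fdps, which makes farnesyl diphosphate, stood at 203 FPKM, and Msmo1, a demethylase late in sterol synthesis, at 189.9 FPKM. Some other synthesis genes stood far lower, down to 14.6 FPKM for Ebp, a sterol isomerase, above 54.2% of tested genes. Of the LXR-linked genes, Apoe stood at 28.8 FPKM and Nr1h2, which encodes LXRβ, at 29.9 FPKM, inside the range of the synthesis genes. In control alone the mean of Apoe was 11.5 FPKM, below the control mean of each sterol synthesis gene, of which Hsd17b7 was lowest at 13.5 FPKM. Over the 6 libraries, the sterol exporter Abca1 stood at 4.14 FPKM, above 19.1% of tested genes. Mylip, a ubiquitin ligase that lowers lipoprotein receptors, stood at 2.16 FPKM. Nr1h3 had 5 and 1 counts in control, 16 and 10 in PQ, and 3 and 9 in NAC, too few for a comparison. Counts of Acat2, Idi1, Cyp51, Sc5d, Mylip, Scd1, Scd2 and Elovl6 were fractional in all 6 libraries. Those of Hsd17b7 were fractional in 4 libraries and those of Npc1 in 3. Fractions arise where reads are partly shared with other genes or copies, which were not traced, so values of these genes are less certain.

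**Figure D1:**
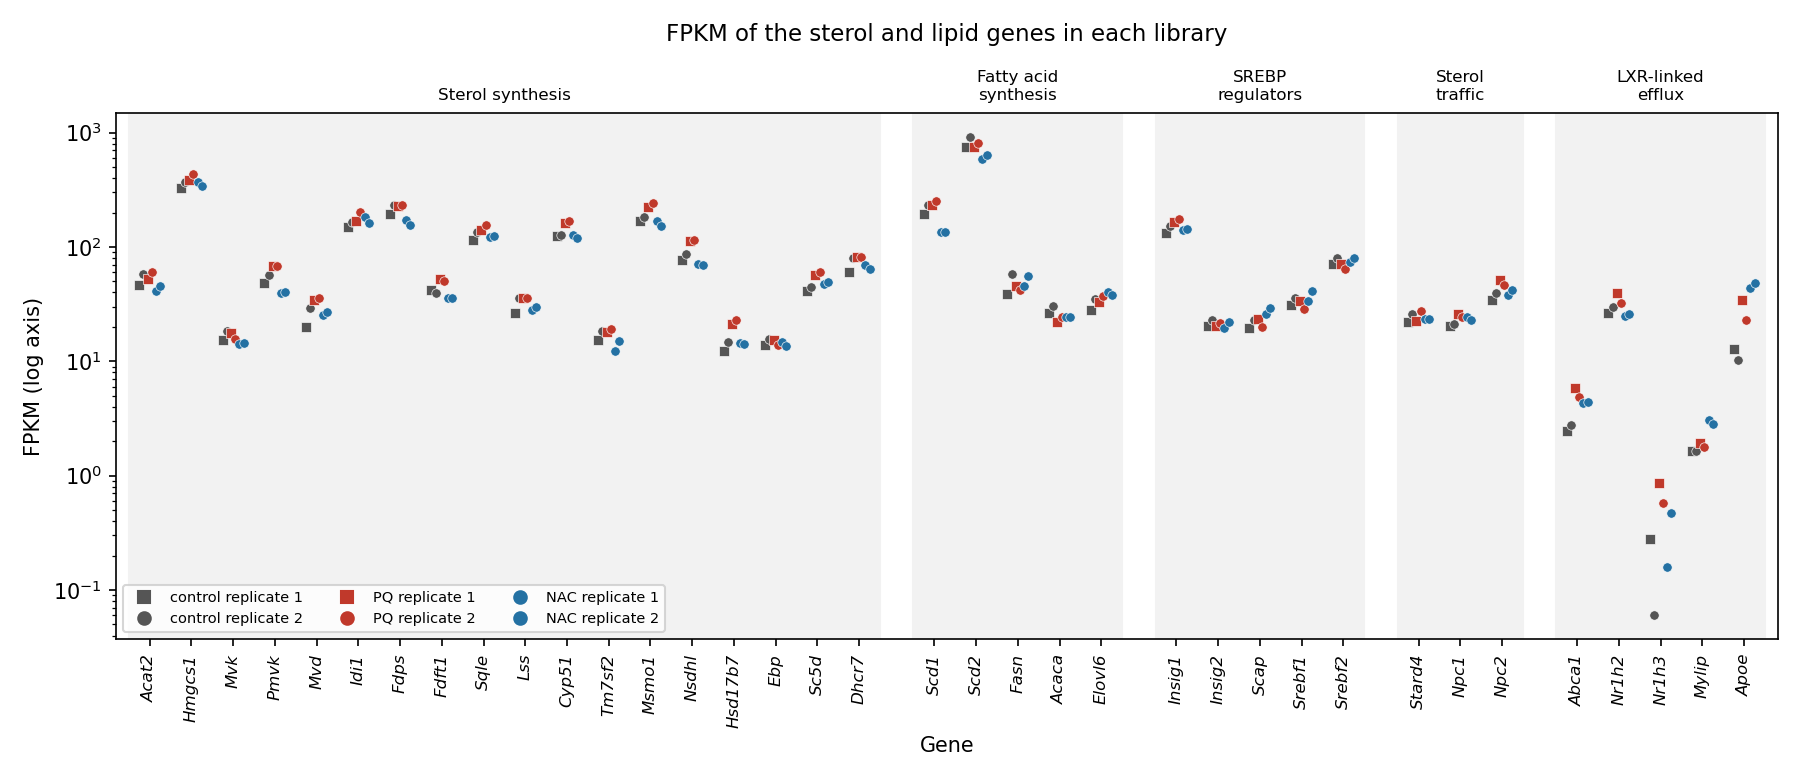
FPKM (log axis) of the 36 listed genes in each of the 6 libraries, grouped by role, with squares for libraries labelled NucleoSpin and Illumina and circles for those labelled TRIZOL and BGISEQ-500. Scd2 lies highest, up to 909.6 FPKM, and Abca1, Mylip and Nr1h3 lie lowest.

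Promoters are shown for Hsd17b7, Nsdhl and Msmo1, 3 sterol synthesis genes that were higher with PQ, for Abca1 and Apoe, higher in both treatments, and for Hmgcs1, which passed the test in no comparison but holds the letters of a sterol regulatory element. RefSeq promoters (GRCm38.p6, 250 bases before to 50 after the gene start) matched 29 of the 37 genes; Fdps, Fdft1, Sqle, Stard4, Npc1, Abcg1, Scd1 and Scd2 have no entry. Those printed are Hmgcs1 (chr13:119690101-119690400, plus strand), Hsd17b7 (chr1:169969156-169969455, minus strand), Nsdhl (chrX:72918271-72918570, plus strand), Msmo1 (chr8:64733529-64733828, minus strand), Abca1 (chr4:53159846-53160145, minus strand) and Apoe (chr7:19699139-19699438, minus strand, the farthest upstream of 3 starts). The first 4 are sterol synthesis genes and the last 2 are LXR-linked genes. Capitals mark TCACNCCAC, the letters of a sterol regulatory element, CCAAT, the letters that NF-Y binds, and GGGCGG, a GC box that Sp1 binds, each as read on either strand.
Hmgcs1: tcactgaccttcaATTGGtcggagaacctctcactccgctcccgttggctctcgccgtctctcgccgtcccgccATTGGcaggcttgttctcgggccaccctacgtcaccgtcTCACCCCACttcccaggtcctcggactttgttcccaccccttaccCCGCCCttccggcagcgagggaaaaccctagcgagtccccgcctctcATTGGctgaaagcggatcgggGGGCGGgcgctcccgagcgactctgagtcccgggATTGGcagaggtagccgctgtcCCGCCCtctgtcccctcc
Hsd17b7: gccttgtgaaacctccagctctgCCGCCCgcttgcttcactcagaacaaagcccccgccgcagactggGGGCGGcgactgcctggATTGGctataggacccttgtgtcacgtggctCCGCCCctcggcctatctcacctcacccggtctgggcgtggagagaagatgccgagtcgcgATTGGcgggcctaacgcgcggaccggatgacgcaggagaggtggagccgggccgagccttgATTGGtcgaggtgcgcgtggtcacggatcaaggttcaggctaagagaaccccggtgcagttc
Nsdhl: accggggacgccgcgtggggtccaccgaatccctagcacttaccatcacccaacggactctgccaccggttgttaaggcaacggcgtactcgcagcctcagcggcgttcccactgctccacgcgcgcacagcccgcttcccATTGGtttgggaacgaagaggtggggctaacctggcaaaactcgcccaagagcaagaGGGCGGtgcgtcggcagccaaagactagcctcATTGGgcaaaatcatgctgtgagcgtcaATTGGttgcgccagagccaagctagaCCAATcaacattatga
Msmo1: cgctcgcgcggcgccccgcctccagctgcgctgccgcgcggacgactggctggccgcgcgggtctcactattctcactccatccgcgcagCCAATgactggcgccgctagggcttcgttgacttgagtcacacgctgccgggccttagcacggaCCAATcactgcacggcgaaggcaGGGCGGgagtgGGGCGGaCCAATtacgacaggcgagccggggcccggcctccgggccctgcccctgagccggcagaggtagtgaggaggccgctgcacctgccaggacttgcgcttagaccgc
Abca1: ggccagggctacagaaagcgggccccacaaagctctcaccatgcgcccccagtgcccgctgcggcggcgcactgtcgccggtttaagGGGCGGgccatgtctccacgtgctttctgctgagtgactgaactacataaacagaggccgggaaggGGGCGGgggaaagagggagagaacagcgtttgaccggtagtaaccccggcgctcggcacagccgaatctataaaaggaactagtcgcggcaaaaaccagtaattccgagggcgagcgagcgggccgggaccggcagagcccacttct
Apoe: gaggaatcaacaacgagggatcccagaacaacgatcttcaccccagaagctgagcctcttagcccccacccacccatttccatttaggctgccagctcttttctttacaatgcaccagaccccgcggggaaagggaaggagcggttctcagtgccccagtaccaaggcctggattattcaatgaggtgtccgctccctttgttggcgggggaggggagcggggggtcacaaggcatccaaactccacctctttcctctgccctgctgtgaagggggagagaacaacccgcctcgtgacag

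A gene was counted where any of its starts had a match. CCAAT, searched on both strands, was present in 14 of 15 sterol synthesis promoters, against 41.1% of 27025 genes with a promoter in the table. Of 14 further lipid synthesis genes with a promoter, 10 also had it, or 71.4%. Among the LXR-linked genes it was present in 1 of 5, Mylip. GGGCGG was present in 14 of 15 sterol synthesis promoters and in 2 of 5 LXR-linked promoters, Abca1 and Mylip, against 38.2% of all genes. The further lipid synthesis genes had it in 10 of 14, or 71.4%. TCACNCCAC was present among these genes only in Hmgcs1, with its middle at -133 from the start, against 1.44% of all genes. The exact letters of an LXR element, a direct repeat of AGGTCA with a gap of 4 bases, were in none of the 29 promoters. They were in only 4 of the 27025 genes, so this search could hardly find a match in so few promoters. It cannot tell whether a promoter, among them that of Abca1, holds an LXR element with other letters. A match describes letters, and a missing match says only that these letters are not in this window.

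**Figure D2:**
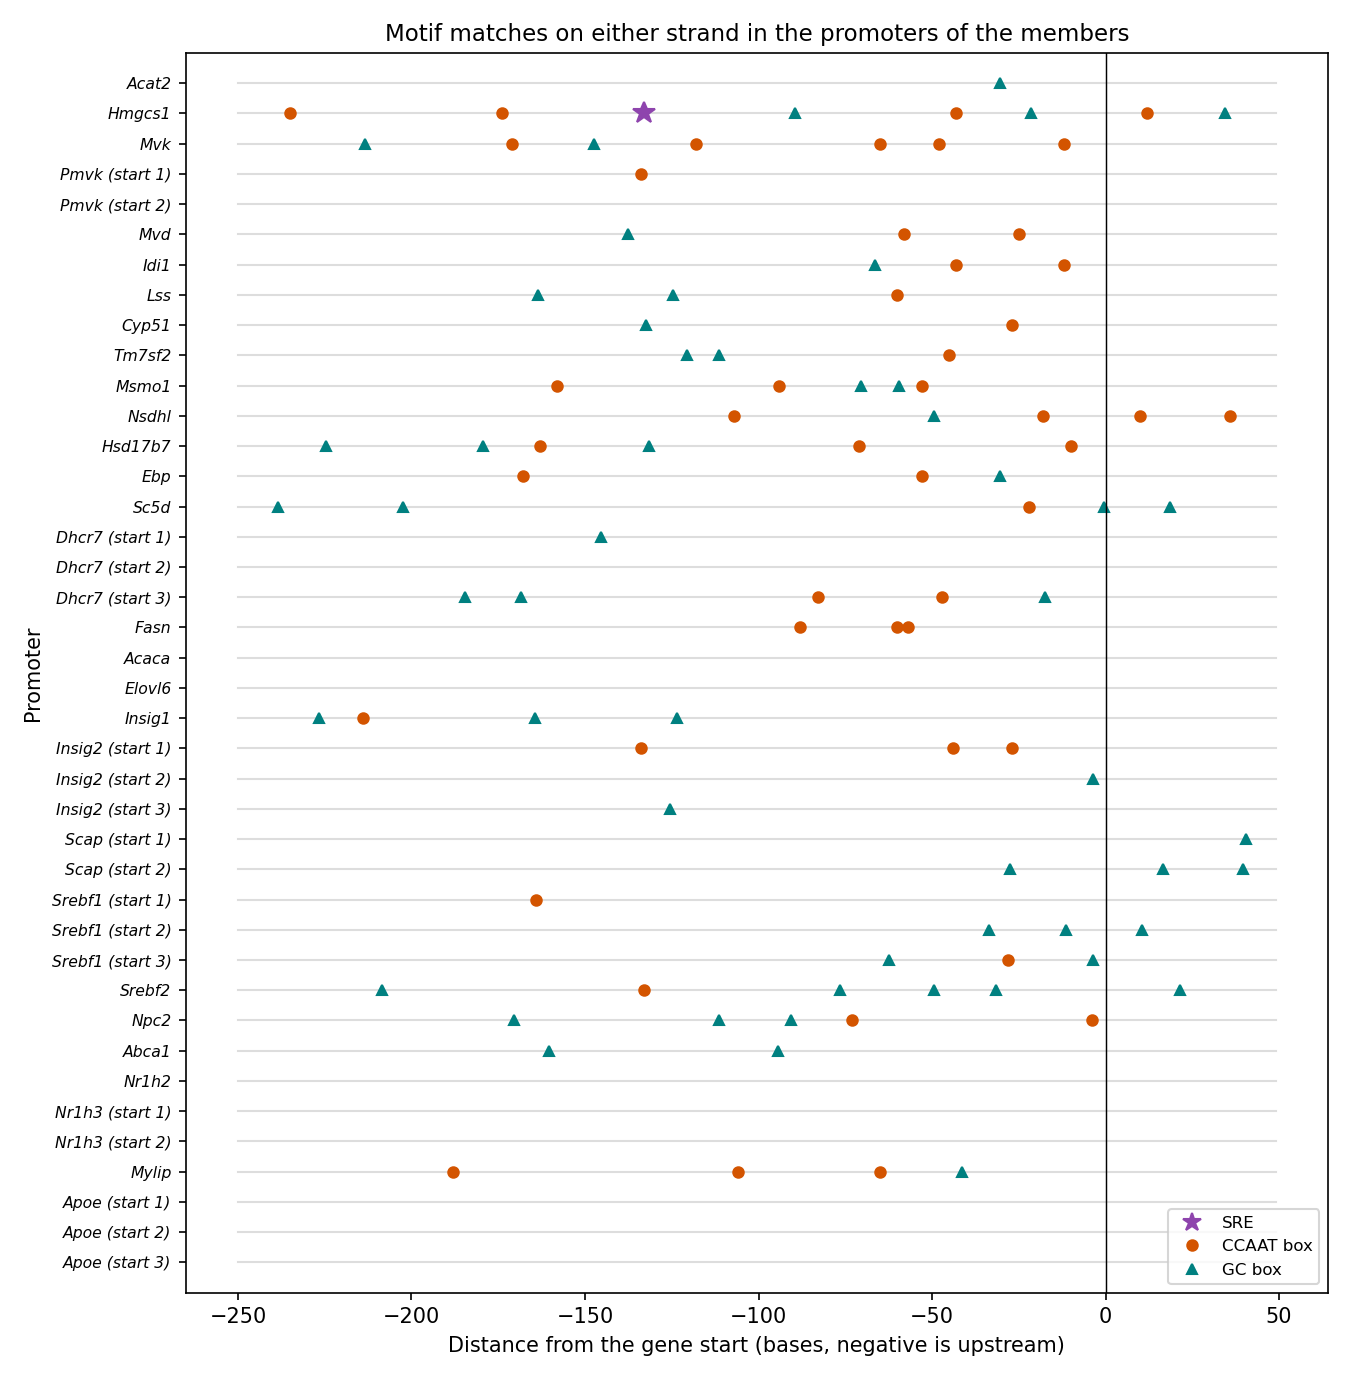
Matches to the CCAAT box, the GC box and the sterol regulatory element on either strand, by distance from the gene start in bases (negative is upstream), 1 line per promoter of the members. CCAAT matches stand in 14 of 15 sterol synthesis promoters and in 1 of 5 LXR-linked promoters.

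Paraquat against control asked how an oxidant changes these progenitors. With PQ, 8 genes of sterol synthesis were higher, and so were Apoe, Abca1 and Nr1h2 of the LXR-linked genes and Npc2 of sterol traffic. Of the 35 tested members, 12 were higher at an adjusted p under 0.05, that is 34.3%, where 9.76% of all tested genes were higher. Only Acaca, the acetyl-CoA carboxylase that starts fatty acid synthesis, was lower, or 2.86% of the members where 9.45% of all tested genes were lower. The median log2 fold change was 0.19 over the members and -0.00 over all tested genes. The count of members higher was 8 without control replicate 1, 15 without control replicate 2, 7 without PQ replicate 1 and 6 without PQ replicate 2. The call of Acaca was lost without PQ replicate 1, without control replicate 2 and by limma. In bulk RNA, fewer cells of a type and less RNA per cell cannot be told apart. With 2 libraries per group, groups without overlap were common. Both PQ libraries lay above both controls in 29.2% of all tested genes and below both in 28.7%, against 51.4% and 5.71% of the members. For NAC and control the shares of all tested genes were 28.4% above and 28.2% below. For PQ and NAC they were 33.2% and 33.3%.

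Among the 18 genes of sterol synthesis, 8 were higher with PQ, 16 had a log2 fold change above 0, and the median was 0.22. Hsd17b7, a ketosteroid reductase that helps remove methyl groups from lanosterol-derived sterols, stood at 12.2 and 14.7 FPKM in control, 21.2 and 22.8 in PQ, and 14.5 and 14.3 in NAC. Both PQ libraries lay above the other 4. Its log2 fold change of PQ against control was 0.68 (SE 0.11, n = 2 per group, adjusted p = 2.1e-04). Nsdhl, the dehydrogenase that acts beside it, stood at 77.7 and 86.3 FPKM in control, 112 and 114 in PQ, and 71.0 and 69.7 in NAC. The groups did not overlap, with PQ on top and NAC at the bottom. With PQ, Nsdhl was higher than control by 0.44 on the log2 scale (SE 0.09, adjusted p = 0.00254).

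Msmo1, the oxidase of the same demethylation step, stood at 169 and 184 FPKM in control, 225 and 241 in PQ, and 168 and 153 in NAC. PQ lay above the other 4 libraries, and NAC lay just below both controls. Its log2 fold change with PQ was 0.37 (SE 0.09, adjusted p = 0.00863). Cyp51, which removes another methyl group of lanosterol, stood at 124 and 128 FPKM in control, 162 and 167 in PQ, and 126 and 119.8 in NAC. Again PQ stood apart while control and NAC overlapped. Cyp51 was higher with PQ by 0.36 (SE 0.09, adjusted p = 0.00647). Sc5d, a desaturase close to the end of the route, stood at 41.2 and 44.4 FPKM in control, 57.4 and 60.3 in PQ, and 47.0 and 49.3 in NAC. Its groups did not overlap, with NAC between control and PQ. The log2 fold change of Sc5d with PQ was 0.43 (SE 0.10, adjusted p = 0.00359).

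Earlier in the route, Pmvk, which phosphorylates mevalonate phosphate, stood at 48.7 and 57.0 FPKM in control, 68.0 and 68.4 in PQ, and 39.9 and 40.3 in NAC. PQ lay above both controls and NAC below them, with a log2 fold change of 0.34 with PQ (SE 0.10, adjusted p = 0.0263). Mvd, the next enzyme, stood at 19.8 and 29.3 FPKM in control, 34.6 and 36.0 in PQ, and 25.2 and 27.0 in NAC. Its controls were far apart and enclosed NAC, and its log2 fold change with PQ was 0.50 (SE 0.14, adjusted p = 0.0157). Fdft1, squalene synthase, stood at 42.0 and 39.8 FPKM in control, 52.7 and 50.8 in PQ, and 35.9 and 36.1 in NAC. The groups did not overlap, and its log2 fold change with PQ was 0.31 (SE 0.09, adjusted p = 0.0245). Of these 8 calls, those of Hsd17b7 and Nsdhl held without any 1 library. All 6 others were lost without PQ replicate 2, those of Fdft1, Mvd and Pmvk also without PQ replicate 1, those of Mvd and Pmvk without control replicate 1, and that of Fdft1 without control replicate 2. DESeq2 did not make the call of Pmvk.

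Hmgcs1, the most abundant sterol synthesis transcript per length, stood at 326 and 372 FPKM in control, 384 and 435 in PQ, and 367 and 342 in NAC. PQ lay above both controls, but its log2 fold change of 0.21 had an adjusted p of 0.149. The 10 sterol synthesis genes that did not pass the test with PQ had log2 fold changes from -0.04 for Mvk to 0.22 for Sqle. Replicate 1 of control lay below replicate 2 for nearly all of these genes: its sterol synthesis median was -0.11 from the control mean and that of replicate 2 was 0.11, in log2 CPM (counts scaled to library size). Compared within a labelled protocol, the sterol synthesis median was 0.31 higher in PQ replicate 1 than in control replicate 1, with 18 of 18 genes above 0. For replicate 2 it was 0.24 higher, with 14 of 18 genes above 0. In both protocols the median difference was thus positive.

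**Figure D3:**
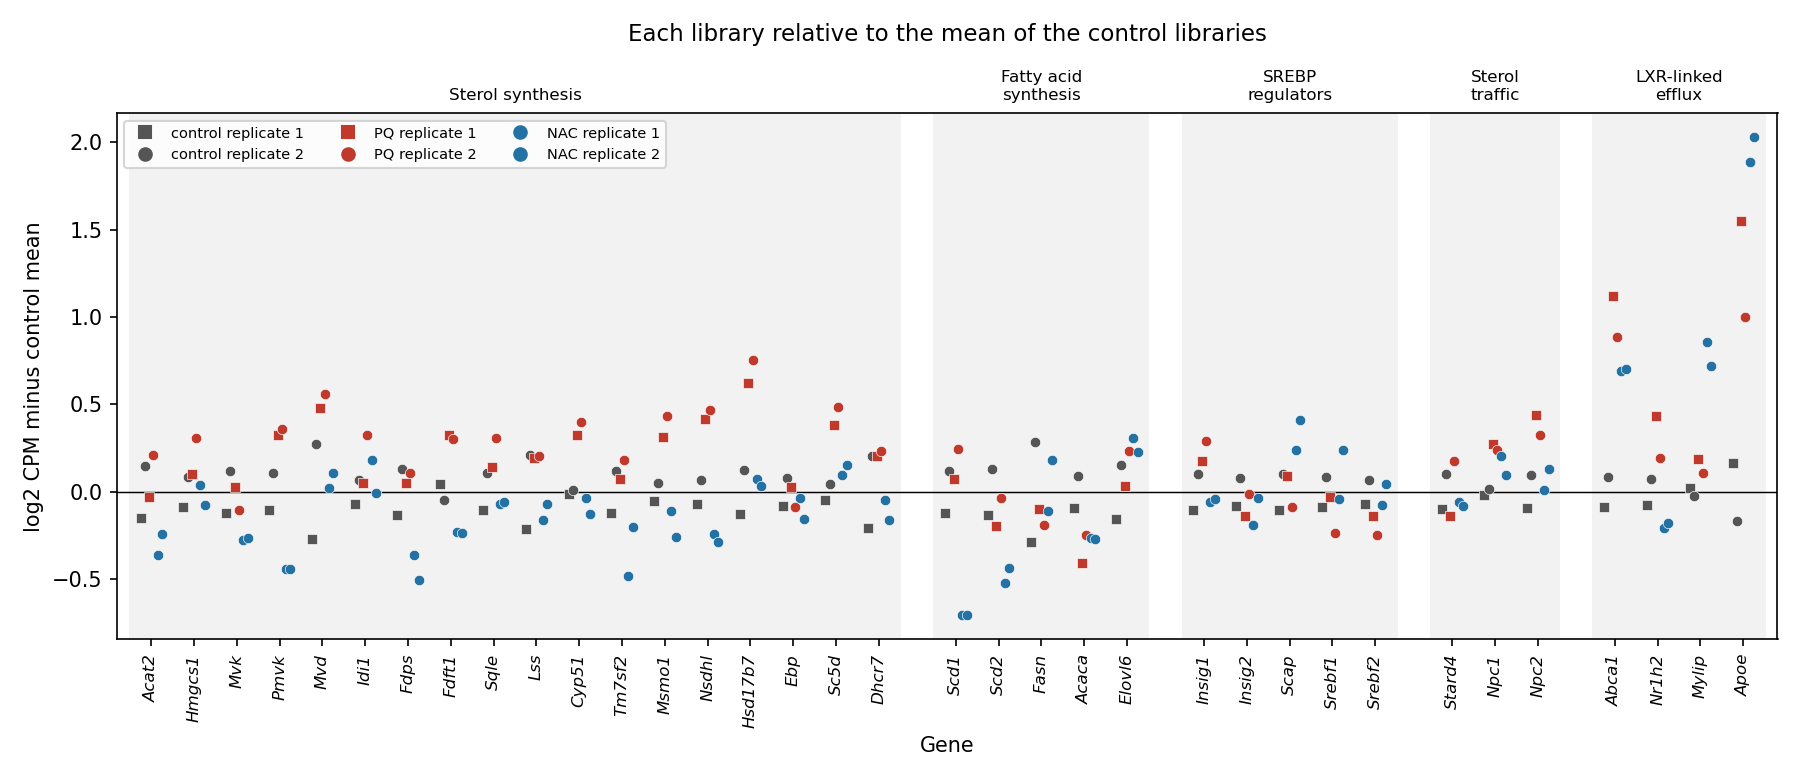
Log2 CPM (counts scaled to library size) of each tested member in each of the 6 libraries, minus the mean of the control libraries, with squares and circles for the 2 labelled protocols. For Hsd17b7, Nsdhl, Msmo1, Cyp51 and Sc5d both red PQ points lie above the others, and for Apoe and Abca1 both treatments lie above control.

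Among the LXR-linked genes, Apoe and Abca1 were higher than control in both treatments. Apoe, the lipoprotein that carries sterols between brain cells, stood at 12.8 and 10.2 FPKM in control, 34.5 and 23.1 in PQ, and 43.6 and 48.6 in NAC. All 4 treated libraries lay above both controls, and NAC lay above PQ. Its log2 fold change was 1.30 with PQ (SE 0.17, adjusted p = 4.0e-05), or 2.46-fold. With NAC it was 1.96 (SE 0.17, adjusted p = 1.7e-07), or 3.88-fold. PQ against NAC gave -0.66 (SE 0.15, adjusted p = 0.00226), a call lost without PQ replicate 2. Within a labelled protocol, Apoe was higher than control by 1.38 in PQ replicate 1, 1.17 in PQ replicate 2 and at least 2.06 in each NAC library.

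Astrocytes are the main source of Apoe in the brain, and astrocyte markers also moved. The 7 astrocyte markers summed to 178 and 179.0 FPKM in control, 208 and 222 in PQ, and 209.9 and 209.4 in NAC, with Gja1 the most abundant and none at or under 3 counts in every library. Their median log2 fold change was 0.23 with PQ, 1.09 with NAC and -0.52 for PQ against NAC. With NAC, Aldoc, Aqp4, Gfap and Slc1a2 were higher and Gja1 was lower. With PQ, Aldh1l1 and Gja1 were higher. Aldoc stood at 41.8 and 46.5 FPKM in control, 42.7 and 46.6 in PQ, and 96.6 and 97.3 in NAC, so that only NAC lay apart. The part of these markers in the Apoe result was not tested.

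Abca1, which hands cholesterol to lipoproteins outside the cell, stood at 2.45 and 2.80 FPKM in control, 5.87 and 4.90 in PQ, and 4.36 and 4.43 in NAC. The groups did not overlap. Its log2 fold change was 1.01 with PQ (SE 0.12, adjusted p = 1.4e-05) and 0.70 with NAC (SE 0.12, adjusted p = 4.0e-04), or 2.01-fold and 1.62-fold. PQ exceeded NAC by 0.31 (SE 0.11, adjusted p = 0.0436), a call lost in 8 of 12 alternatives: without PQ replicate 1, without either NAC library, with a term for the labelled protocol or for replicate sets, by DESeq2 and by limma with either pseudocount. Nr1h2 stood at 26.7 and 29.9 FPKM in control, 39.3 and 32.6 in PQ, and 25.2 and 25.9 in NAC. PQ lay above the other 4 libraries. Its log2 fold change with PQ was 0.32 (SE 0.11, adjusted p = 0.0493), a call lost in 8 of 12 alternatives: without control replicate 1, without PQ replicate 1, with a term for the labelled protocol or for replicate sets, with only the 4 libraries compared, by DESeq2 and by limma with either pseudocount. Mylip stood at 1.65 and 1.63 FPKM in control, 1.94 and 1.80 in PQ, and 3.10 and 2.84 in NAC. PQ lay slightly above control and NAC far above it. The log2 fold change of Mylip was 0.80 with NAC (SE 0.21, adjusted p = 0.0102), a call lost without NAC replicate 1 and by DESeq2, and 0.15 with PQ (adjusted p = 0.689).

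Side by side, the 4 tested LXR-linked genes (Apoe, Abca1, Mylip and the receptor gene Nr1h2) had a median log2 fold change of 0.66 with PQ and 0.75 with NAC. The 25 SREBP-driven genes (sterol and fatty acid synthesis, Insig1 and Stard4) had 0.19 and -0.12. The medians describe these genes only, not all genes that LXR or SREBP switches on, and a gene may answer to both. The comparisons with PQ and with NAC share the control libraries. Over all tested genes the median was -0.00 in each. With PQ, 8 of 25 SREBP-driven genes were higher and 1 lower, and 3 of 4 LXR-linked genes were higher. Of all tested genes, 9.76% were higher and 9.45% lower. All 8 SREBP-driven genes that were higher belong to sterol synthesis. The 5 fatty acid synthesis genes had a median of -0.12 with PQ, with 0 higher and 1 lower. Further genes of lipid synthesis, listed apart, had a median of 0.02 with PQ. The NAC libraries had 4 of 25 SREBP-driven genes lower and 3 of 4 LXR-linked genes higher, where 9.64% of all tested genes were lower and 9.01% higher. No test compared the lists. The SREBP-driven median with PQ was 0.04 without control replicate 1, 0.29 without control replicate 2 and 0.10 without PQ replicate 2. With NAC it was -0.23 without control replicate 1, -0.01 without control replicate 2, -0.20 with a term for the labelled protocol and -0.06 by limma with either pseudocount. Without the filter on low values, which adds Nr1h3, the LXR-linked median was 1.01 with PQ and 0.80 with NAC.

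The medians by library were as follows. For SREBP-driven genes they lay at -0.11 and 0.11 from the control mean in control, 0.10 and 0.25 in PQ, and -0.11 and -0.16 in NAC. PQ overlapped control in this measure and NAC lay just under the lower control. For LXR-linked genes they lay at -0.03 and 0.03 in control, 0.78 and 0.54 in PQ, and 0.78 and 0.71 in NAC, with every treated library above both controls. Within a labelled protocol, SREBP-driven genes differed from control by 0.20 and 0.13 in the PQ libraries and by -0.25 and -0.24 in the NAC libraries. LXR-linked genes differed by 0.86 and 0.47 in the PQ libraries and by 0.74 and 0.68 in the NAC libraries.

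**Figure D4:**
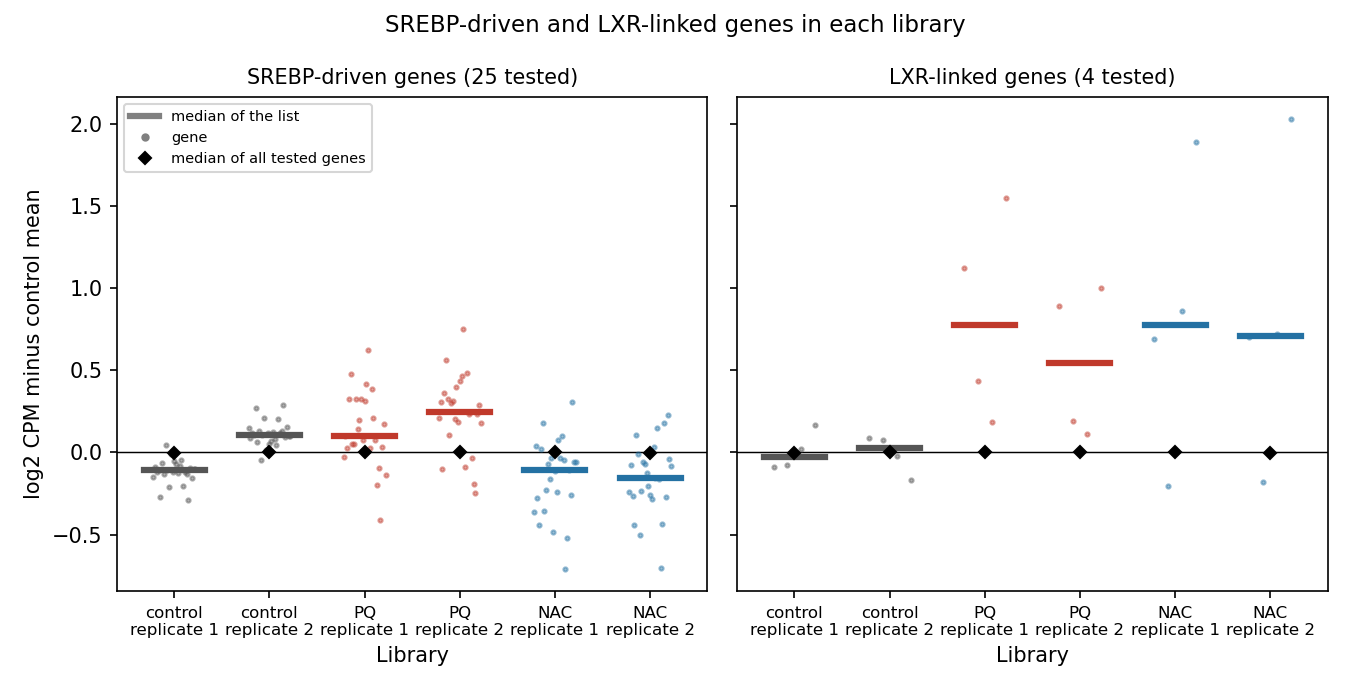
Log2 CPM minus the control mean for 25 SREBP-driven and 4 LXR-linked genes in each of the 6 libraries, with a point per gene, a bar for the list median and a diamond for the median of all tested genes. SREBP-driven medians were 0.10 and 0.25 in PQ and -0.11 and -0.16 in NAC, whereas LXR-linked medians lay between 0.54 and 0.78 in both.

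N-acetylcysteine against control asked how an antioxidant changes the same cells. Fatty acid desaturases and 2 enzymes of the mevalonate route were lower, and Abca1, Apoe and Mylip of the LXR-linked genes were higher. Of the 35 members, 4 were higher (Abca1, Apoe, Mylip and Scap), that is 11.4%, where 9.01% of all tested genes were higher. Another 4 were lower (Fdps, Scd1, Scd2 and Pmvk), also 11.4%, where 9.64% of all tested genes were lower. Both shares are near those of all tested genes. The count of members higher was 2 without NAC replicate 1, and the count lower was 8 without control replicate 1 and 2 without control replicate 2.

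Scd1, a desaturase like Scd2, stood at 195 and 232 FPKM in control, 231 and 255 in PQ, and 134 and 136 in NAC. NAC lay far below the other 4 libraries, and control and PQ overlapped. Its log2 fold change with NAC was -0.71 (SE 0.10, adjusted p = 3.5e-05). Within the labelled protocol of the NAC libraries it was -0.83 and -0.82. Scd2 stood at 751 and 909.6 FPKM in control, 741 and 814 in PQ, and 591 and 634 in NAC. NAC was again lowest, with a log2 fold change of -0.48 (SE 0.10, adjusted p = 0.00149). Fdps stood at 193 and 234 FPKM in control, 227 and 233 in PQ, and 171 and 157 in NAC. NAC lay below both controls while PQ fell inside their range, and the log2 fold change with NAC was -0.43 (SE 0.10, adjusted p = 0.00494). That of Pmvk, whose values were given with PQ, was -0.45 (SE 0.11, adjusted p = 0.00571). The call of Fdps was lost without control replicate 2 and without NAC replicate 2, and that of Pmvk without control replicate 2. Over the 18 sterol synthesis genes 14 had log2 fold changes under 0 with NAC, with a median of -0.12. Within the labelled protocol 16 and 17 of 18 lay below control in NAC replicates 1 and 2, with medians of -0.21 and -0.26.

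The other 3 fatty acid synthesis genes carry acetyl-CoA to long fatty acids. Acaca stood at 26.5 and 30.5 FPKM in control, 22.0 and 24.2 in PQ, and 24.4 and 24.5 in NAC. All treated libraries lay below both controls, with a log2 fold change of -0.33 with PQ (SE 0.10, adjusted p = 0.0244) and -0.27 with NAC (adjusted p = 0.0614). Fasn, fatty acid synthase, stood at 38.7 and 58.2 FPKM in control, 45.6 and 41.9 in PQ, and 45.2 and 55.8 in NAC. Its controls enclosed all the other libraries. The difference from control within a protocol was 0.19 for PQ replicate 1 and -0.48 for PQ replicate 2. Elovl6, an elongase, had a log2 fold change of 0.13 with PQ and 0.26 with NAC, and neither passed the test (adjusted p = 0.458 and 0.107).

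Of the 5 genes that encode or control SREBP, Scap passed the test with NAC. Srebf2, which encodes the SREBP of sterol synthesis, stood at 71.3 and 79.3 FPKM in control, 70.3 and 64.0 in PQ, and 73.3 and 80.6 in NAC. PQ lay just below both controls, with a log2 fold change of -0.19 (SE 0.09, adjusted p = 0.169). Srebf1, which encodes the SREBP of fatty acid synthesis, had log2 fold changes of -0.13 with PQ (adjusted p = 0.463) and 0.10 with NAC (adjusted p = 0.582). Insig1, itself switched on by SREBP, stood at 132 and 154 FPKM in control, 165 and 176 in PQ, and 140.3 and 144 in NAC. PQ was highest, but its log2 fold change from control was 0.23 (SE 0.09, adjusted p = 0.0986). Insig2 ranged from 19.5 to 23.2 FPKM over all 6 libraries. Scap stood at 19.6 and 22.8 FPKM in control, 23.3 and 20.1 in PQ, and 25.7 and 29.3 in NAC. Only NAC lay above the rest, with a log2 fold change of 0.32 (SE 0.11, adjusted p = 0.0403), a call lost in 9 of 12 alternatives: without control replicate 1, without either NAC library, with a term for the labelled protocol or for replicate sets, with only the 4 libraries compared, by DESeq2 and by limma with either pseudocount.

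Sterol traffic genes move cholesterol between compartments. Npc2, which lifts cholesterol out of the lysosome, stood at 34.3 and 39.5 FPKM in control, 51.4 and 46.6 in PQ, and 38.1 and 41.9 in NAC. PQ lay above the other 4 libraries, with a log2 fold change of 0.38 (SE 0.10, adjusted p = 0.0116), lost without control replicate 1 and without PQ replicate 1. Npc1, its membrane partner, stood at 20.4 and 21.1 FPKM in control, 25.8 and 24.7 in PQ, and 24.6 and 23.0 in NAC. Both treatments lay above control, with log2 fold changes of 0.26 with PQ (adjusted p = 0.0663) and 0.15 with NAC (adjusted p = 0.297). Stard4, a soluble sterol carrier, ranged from 22.2 FPKM in control replicate 1 to 27.3 in PQ replicate 2.

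PQ against NAC set oxidant and antioxidant side by side, with no control in the comparison. Of the 35 members, 20 were higher in PQ, or 57.1%, where 16.0% of all tested genes were higher. Another 3 were lower (Apoe, Mylip and Scap), or 8.57%, where 15.7% of all tested genes were lower. Sterol synthesis carried most of these, with 14 of 18 genes higher, 18 of 18 log2 fold changes above 0 and a median of 0.42. The count higher was 14 without PQ replicate 1, 11 without PQ replicate 2, 9 without NAC replicate 1 and 14 without NAC replicate 2. The count lower was 0 without PQ replicate 2. The call of Scap was lost in 6 of 12 alternatives: without PQ replicate 2, without NAC replicate 2, with a term for the labelled protocol or for replicate sets and by limma with either pseudocount. That of Mylip was lost in 4: without PQ replicate 1, PQ replicate 2 or NAC replicate 1, and by DESeq2.

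The widest gaps were those of Scd1, at 0.87 (SE 0.10, adjusted p = 2.0e-06), Pmvk, at 0.79 (SE 0.10, adjusted p = 1.4e-05), and Nsdhl, at 0.71 (SE 0.09, adjusted p = 1.3e-05). For each of these genes both PQ libraries lay above both NAC libraries, as they did for 33.2% of all tested genes. Hsd17b7 differed by 0.63 (SE 0.11, adjusted p = 1.5e-04) and Msmo1 by 0.56 (SE 0.09, adjusted p = 1.6e-04). Fdft1 differed by 0.54 (SE 0.09, adjusted p = 2.0e-04), Fdps by 0.51 (SE 0.10, adjusted p = 7.9e-04) and Cyp51 by 0.44 (SE 0.09, adjusted p = 7.0e-04). These 8 calls held without any 1 library. Acat2, Dhcr7, Insig1, Lss, Sqle and Tm7sf2 passed the test only here, with log2 fold changes from 0.28 to 0.47. Each of these calls was lost without PQ replicate 2 and without NAC replicate 1, those of Dhcr7, Insig1, Lss and Sqle also without NAC replicate 2, and those of Dhcr7, Insig1 and Lss without PQ replicate 1. With limma, those of Acat2, Dhcr7, Insig1, Lss and Sqle were lost, those of Insig1 and Lss also with a term for replicate sets, and that of Lss by DESeq2. The other 6 members higher in PQ (Abca1, Mvd, Nr1h2, Npc2, Sc5d and Scd2) differed by 0.31 to 0.51, and each of their calls was lost without at least 1 library. Those of Abca1, Mvd and Npc2 were also lost by limma, those of Abca1 and Npc2 with a term for the labelled protocol, and that of Abca1 with a term for replicate sets and by DESeq2. Within the labelled protocol shared by PQ replicate 2 and both NAC libraries, the sterol synthesis median was 0.45 and 0.42 higher in PQ. SREBP-driven genes as a whole were 0.38 and 0.39 higher in PQ there. The LXR-linked medians were -0.28 and -0.21, with 2 genes above and 2 below 0 in each. Over all libraries the LXR-linked median of -0.17 turned to 0.01 without PQ replicate 2 and to 0.31 without the filter on low values.

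**Figure D5:**
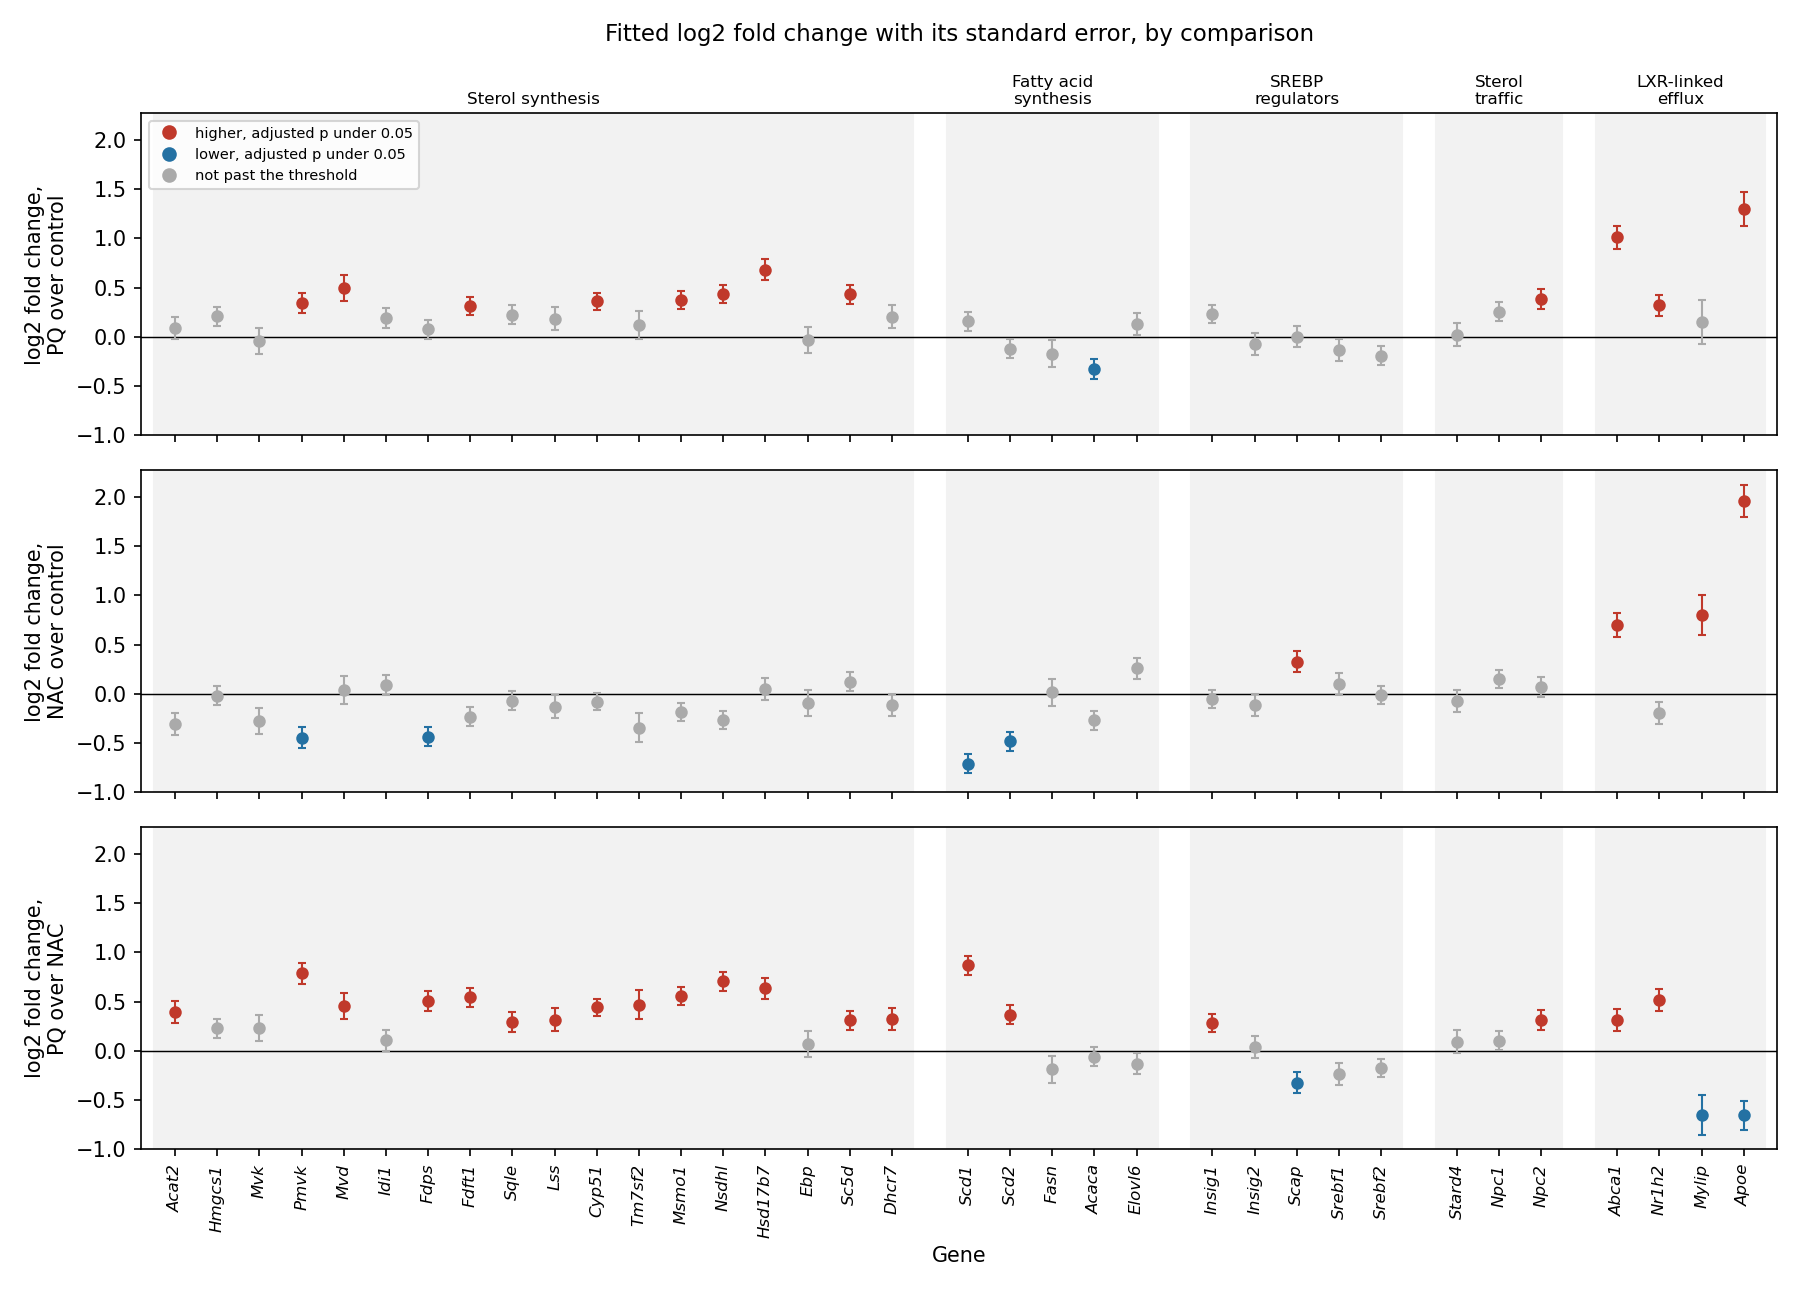
Log2 fold change with its standard error for each tested member, in 3 panels for PQ against control, NAC against control and PQ against NAC, with red for higher and blue for lower at an adjusted p under 0.05 and grey for the others. In the PQ against NAC panel 14 of 18 sterol synthesis genes are red, and Apoe and Mylip are blue beside red Abca1 and Nr1h2.

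Across the 3 comparisons, 9 of 35 members were higher in PQ than in both control and NAC and did not pass the test between NAC and control: Cyp51, Fdft1, Hsd17b7, Msmo1, Mvd, Sc5d and Nsdhl of sterol synthesis, with Npc2 and Nr1h2, whose call against control was lost in 8 of 12 alternatives. This pattern held for 4.48% of all tested genes. Of the 9 calls against control, only those of Hsd17b7 and Nsdhl held without any 1 library. Pmvk was also higher in PQ than in both control and NAC, and lower in NAC than in control. Abca1 and Apoe were higher in both treatments, with the mean of Abca1 highest in PQ, though its call against NAC was lost in 8 of 12 alternatives, and that of Apoe highest in NAC. In 16 of 35 members the group means ran from PQ over control down to NAC, among them 12 of sterol synthesis, where 21.1% of all tested genes had this order. A further 11 members passed the test in none of the 3 comparisons, as did 58.5% of all tested genes: Ebp, Elovl6, Fasn, Hmgcs1, Idi1, Insig2, Mvk, Npc1, Srebf1, Srebf2 and Stard4. Their log2 fold changes ran from -0.28 for Mvk, NAC against control, to 0.26 for Elovl6, NAC against control.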

How the data were processed

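The mRNA of 6 libraries was measured by sequencing, 2 each of control, PQ and NAC. The deposited tables hold expected counts and FPKM per gene, made by the authors in the column format that RSEM writes, with 1 table per library. For control and PQ replicate 1 the authors' notes name bcl2fastq 2.17, cutadapt, TopHat2 2.0.11 and Cufflinks 2.1.1 on mm9, and for the other 4 libraries HISAT2 2.0.4, Bowtie2 2.2.5 and RSEM on mm10. Which software made which table could not be settled from the files. The FPKM values are printed as deposited by the authors.

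Expected counts were rounded and fitted over all 6 libraries with edgeR 4.0.16 (R 4.3.3; TMM scaling, quasi-likelihood F-test, no covariate). The test covered genes whose FPKM averaged 1 or more, and p-values were adjusted by the Benjamini-Hochberg method over all 11717 of them, with a threshold of 0.05. SE is the size of the log2 fold change divided by the square root of F. Log2 CPM used TMM-scaled totals and a prior count of 1. Alternatives were DESeq2 1.42.0, its size factors, no filter, a term for the labelled protocol, a replicate block, only the 4 libraries compared, limma 3.58.1 on log2 FPKM with 1 or 0.1 added, and leaving out each library of a comparison. The procedure was tested on simulated data. Python 3.11.15 with numpy 2.4.6 and pandas 2.3.3 made the summaries and motif searches.

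Named genes are the 37 members, genes of the further lists on lipid synthesis, sterol handling, SREBP processing and prenylation, the cell type markers and Cdkn2a; some single marker results are not reported here. Members and lists were chosen with earlier results of these data known, so lists are described by counts and medians, with no test over a list.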

Additional observations from a re-analysis of the deposited data

How the results depend on the processing

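Over the 44 calls of single members, 528 alternative values were computed, of which 421 kept the call, 107 lost it and 0 changed direction. Calls kept in every alternative run were those of Abca1, Apoe, Hsd17b7 and Nsdhl for PQ against control, of Abca1, Apoe, Scd1 and Scd2 for NAC against control, and of Cyp51, Fdft1, Fdps, Hsd17b7, Msmo1, Nsdhl, Pmvk and Scd1 for PQ against NAC. DESeq2 gave 2 members higher in NAC than in control. With either pseudocount, limma gave 0 members lower in PQ than in control and 12 higher in PQ than in NAC. Without the filter, which adds Nr1h3 to the LXR-linked genes, their median was 1.01 for PQ against control and 0.31 for PQ against NAC, a change of direction in the latter. It was 0.58 for NAC against control by limma on log2(FPKM + 1). With a term for the labelled protocol, the SREBP-driven median for PQ against NAC was 0.43. Apart from the filter, the cause was not tested.

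Leaving out 1 library gave 6 to 15 members higher and 0 to 2 lower in PQ than in control, 2 to 5 higher and 2 to 8 lower in NAC than in control, and 9 to 14 higher and 0 to 2 lower in PQ than in NAC. It gave 26 to 45 calls of single members, and an LXR-linked median for PQ against NAC from -0.25 to 0.0074, a change of direction without PQ replicate 2. A group left with 1 library is assumed to vary like the others. Calls over the further lists numbered 33. Without 1 library there were 23 to 33, of which 23 to 27 were shared with these, and under the other alternatives 25 to 39, of which 23 to 33 were shared. CCAAT and GGGCGG counts fell by at most 1 of 19 SREBP-driven promoters when only the 200 bases before the start were searched.

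By a match to 98.8% of 250 entries of the study's source data, the libraries fell into 2 replicate sets, PQ replicate 2, control replicate 2 and NAC replicate 1 against the others. As a replicate block these sets gave 11 members higher and 1 lower in PQ than in control, 3 and 4 in NAC than in control, and 17 and 2 in PQ than in NAC. Correlations across genes of the deviations of libraries in the same set were -0.06 for control and PQ, -0.11 for control and NAC, and 0.08 for PQ and NAC.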

Other observations

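Of 15 further genes of lipid synthesis that were tested with NAC, 4 were lower (Acss2, Acsl4, Tmem97 and Fads1) and 1 was higher (Gpam), or 26.7% and 6.67%, where 9.64% of all tested genes were lower and 9.01% higher. The median log2 fold change was -0.19. Acss2, which makes acetyl-CoA from acetate, stood at 41.2 and 49.7 FPKM in control, 39.5 and 41.8 in PQ, and 19.3 and 21.1 in NAC. NAC lay far below the other 4 libraries, with a log2 fold change of -1.21 (SE 0.11, adjusted p = 3.1e-07). Acsl4, which activates polyunsaturated fatty acids, stood at 70.3 and 61.1 FPKM in control, 70.8 and 78.0 in PQ, and 43.5 and 37.3 in NAC. NAC was again lowest, at -0.75 (SE 0.11, adjusted p = 4.6e-05). Gpam, which starts glycerolipid synthesis, stood at 8.51 and 9.25 FPKM in control, 8.04 and 7.54 in PQ, and 14.1 and 13.9 in NAC. NAC lay above the other 4 libraries, at 0.61 (SE 0.11, adjusted p = 5.4e-04). PQ lay below both controls but did not pass the test (adjusted p = 0.216). With PQ, Me1 and Thrsp were higher and Tmem97 was lower, or 13.3% and 6.67%, near the 9.76% and 9.45% of all tested genes, with a median of 0.02. In PQ against NAC, 5 were higher (Lpin1, Thrsp, Acsl4, Acss2 and Acsl3) and 2 were lower (Gpam and Mid1ip1), or 33.3% and 13.3%, where 16.0% of all tested genes were higher and 15.7% lower, with a median of 0.21.

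Among 16 tested genes of other sterol handling, Vldlr and Lrp8, lipoprotein receptors that bind Apoe, were lower with NAC, and Lrp1 and Rxra were higher, with a median of -0.01. Each direction held 12.5% of the list, near the 9.64% and 9.01% of all tested genes. Vldlr stood at 48.3 and 40.5 FPKM in control, 37.3 and 41.8 in PQ, and 20.8 and 23.8 in NAC. Both NAC libraries lay below the other 4, with a log2 fold change of -1.04 (SE 0.11, adjusted p = 1.6e-06). Lrp8 stood at 18.7 and 21.5 FPKM in control, 20.7 and 21.3 in PQ, and 15.0 and 14.6 in NAC, with NAC again lowest and a log2 fold change of -0.49 (SE 0.10, adjusted p = 0.0015). With PQ, Lipa, the lysosomal lipase that frees cholesterol from its esters, was higher, or 6.25% where 9.76% of all tested genes were higher, and the median was 0.04. In PQ against NAC, Lrp8 and Vldlr were higher and Lrp1 and Rxra lower, with a median of 0.06, and 12.5% in each direction is below the 16.0% and 15.7% of all tested genes.

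Of 8 genes that process or degrade SREBP or its regulators, Mbtps1, the protease of the first cleavage, was lower with PQ, at -0.31 (SE 0.09, adjusted p = 0.0228), and the median was -0.11. That is 12.5% of the list, near the 9.45% of all tested genes. Sec23a, Sec24a and Mbtps2 were lower with NAC, or 37.5% where 9.64% of all tested genes were lower (median -0.02). Mbtps1 was lower in PQ than in NAC, or 12.5% where 15.7% of all tested genes were lower (median 0.02). Of 13 genes of isoprenoid use and protein prenylation, Fnta was higher and Fntb lower with PQ (median 0.01), Fntb was lower with NAC (median -0.05), and Coq2 was lower in PQ than in NAC (median 0.11). Each is 7.69% of the list, below the share of all tested genes in that direction, 9.76% and 9.45% with PQ, 9.64% with NAC and 15.7% in PQ against NAC. Fnta and Fntb encode the subunits of farnesyltransferase.

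Chosen after their values were seen, Lbr, Stard5 and Erg28 also take part in sterol biology. Lbr, an inner nuclear membrane protein with sterol reductase activity, stood at 27.2 and 24.3 FPKM in control, 16.4 and 18.1 in PQ, and 24.4 and 25.6 in NAC. Only PQ lay below the rest, with a log2 fold change of -0.61 (adjusted p = 5.1e-04). Stard5, a sterol carrier, stood at 18.1 and 12.4 FPKM in control, 15.7 and 13.1 in PQ, and 7.11 and 9.24 in NAC, and NAC was lowest, at -0.95 (adjusted p = 4.9e-04). Erg28, a scaffold of the demethylation enzymes, stood at 32.1 and 30.9 FPKM in control, 38.10 and 38.32 in PQ, and 33.4 and 38.1 in NAC, with PQ above control by 0.25 (adjusted p = 0.132).

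Markers of further cell types differed between groups as well. The 11 neural stem cell markers summed to 3480 and 3547 FPKM in control, 3810 and 3870 in PQ, and 2770 and 2693 in NAC, mostly from Vim. The median log2 fold change over the 10 tested ran the other way, -0.23 with PQ and 0.09 with NAC. With NAC, Slc1a3 was higher and Nes, Sox2 and Vim were lower. The 11 oligodendrocyte lineage markers summed to 707 and 815 FPKM in control, 833 and 732 in PQ, and 872 and 991 in NAC. The 7 neuronal markers summed to 38.4 and 36.3 FPKM in control, 34.0 and 35.1 in PQ, and 65.5 and 59.0 in NAC. The higher sum in NAC came from Map2, whereas Tubb3 stood lower, at 2.38 and 1.3 FPKM in control, 0.72 and 0.47 in PQ, and 0.32 and 0.44 in NAC, below the level for a test. The 8 microglial markers summed to at most 4.5 FPKM in any library, and the 7 endothelial and mural markers to at most 1.57.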
